A study of Mus musculus with 16 samples.

Results

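A set of 10 genes of cytokine and growth hormone signalling was followed in mouse hearts: the inhibitors Cish, Socs1, Socs2 and Socs3, the growth hormone receptor gene Ghr, the growth factor gene Igf1, the transcription factor genes Stat3, Stat5a and Stat5b, and Il6st, which encodes the receptor chain gp130. They were taken by name from the gene column of the array files, and Cish headed the choice because it had been among the largest falls measured in hearts without MuRF1 and MuRF2. They were 10 of 27670 genes and had 20 of the 41174 probes on the array. Of these, 16 passed the filter on dim probes (heart signal well above background on at least 4 of 16 arrays), and each of the 10 genes kept at least 1 probe among the 12331 genes tested.

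The hearts came from 12 week old, strain-matched mice. The groups were double null (MuRF1 -/- MuRF2 -/-), MuRF1 null MuRF2 het (MuRF1 -/- MuRF2 +/-), MuRF1 het MuRF2 null (MuRF1 +/- MuRF2 -/-) and wild type (MuRF1 +/+ MuRF2 +/+), with 4 biological replicates each and 1 replicate per array. MuRF1 and MuRF2, encoded by Trim63 and Trim55, are RING finger proteins of striated muscle, and MuRF1 is a ubiquitin ligase. Heart RNA (Cy5) was hybridised on every array with the same common reference (Cy3), made from pooled RNA of whole pups (C57BL/6, postnatal day 1). The labels name no tissue-specific driver or induction for either allele, so these hearts do not separate effects that begin in heart muscle from those of other tissues.

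Growth hormone binds its receptor on the cell surface, which activates the kinase JAK2 and then the transcription factors STAT5A and STAT5B. In the liver this induces Igf1, whose product circulates and acts on the heart through the IGF1 receptor. STAT5 also induces Cish and Socs2, and both proteins act back on the receptor to end the signal. Cytokines of the interleukin 6 family signal instead through gp130, JAK1 and STAT3, which induces Socs3, the inhibitor that binds gp130.

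Each value below is a log2 ratio of heart RNA over the reference, so a value of 1 stands for 2 times the signal from heart as from pup RNA; values of different genes cannot be compared, since each probe has its own scale. A difference is the mean of the group named first minus the mean of the other, with its standard error from limma fitted over all 16 arrays. The words rose and fell are used where the p adjusted over all genes tested (Benjamini-Hochberg) was under 0.05. Double null against wild type was the contrast from which the genes were chosen, so the members' differences in it are a description and carry no test.

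The heart channel was weaker on some arrays. Cy5 signal was well above background for 6037 to 14503 probes in double null hearts, 6402 to 15067 in MuRF1 null MuRF2 het hearts, 16129 to 17391 in MuRF1 het MuRF2 null and 15171 to 16664 in wild type hearts. The dimmest arrays were double null 2 and MuRF1 null MuRF2 het 1. Slides 1 and 3 each held 2 double null and 2 wild type arrays, while each of the other groups filled a slide of its own, so that for these genotype and slide cannot be told apart. The MuRF1 het MuRF2 null arrays were also read with a later version of the scanner software (9.5.3.1) than all others (9.1.3.1), which cannot be told apart from that genotype either. Trim63 averaged -0.72 ± 0.27 in double null hearts, -0.64 ± 0.22 in MuRF1 null MuRF2 het hearts, 1.94 ± 0.21 in MuRF1 het MuRF2 null and 2.63 ± 0.09 in wild type hearts (SD, n = 4), in the order of the labels. Trim55 averaged -1.35, -1.03, -1.28 and -1.73 in these groups; the labels do not state which part of the gene was deleted, and its probe checks no label. The 10 cardiomyocyte markers averaged 3.34 to 3.75 in double null and 3.81 to 3.97 in wild type hearts, above the pup reference on every array. Endothelial markers moved with genotype: 11 of 14 fell in double null against wild type hearts, among them Flt1, a VEGF receptor (-1.17 ± 0.19, adjusted p = 0.000868), and Eng, a TGF-beta co-receptor (-0.65 ± 0.10, adjusted p = 0.000868), and their mean level ran from 0.13 to 0.27 in double null hearts, 0.12 to 0.61 in MuRF1 null MuRF2 het hearts, 0.55 to 0.87 in MuRF1 het MuRF2 null and 0.72 to 0.81 in wild type hearts. Of all genes, 22.2% passed in this comparison. Among other markers in it, 3 of 10 fibroblast, 2 of 12 leukocyte (Ptprc by 0.27), 3 of 4 atrial (Nppa by 2.90), 1 of 6 adipocyte and 2 of 7 smooth muscle genes rose. In turn, 2 smooth muscle genes, 3 of 8 skeletal muscle genes and 2 of 10 cardiomyocyte genes (Myh6 by 1.52) fell. A further 1 skeletal muscle gene rose, and none of 3 erythroid genes passed. The heart double null 2 stood apart in several of these lists: its median difference from the wild type mean was 1.10 for fibroblast markers (0.09 to 0.27 in the other double null hearts), 1.58 for adipocyte (0.10 to 0.59), 1.52 for skeletal muscle (0.08 to 0.34) and 2.36 for atrial markers (0.43 to 0.65). The other of the dimmest arrays, MuRF1 null MuRF2 het 1, was also the highest of its group in these lists. Its values were 0.61, 1.58, 1.22 and 1.28 in the same order, and the part of brightness in them was not tested. Without double null 2 the difference between double null and wild type was -1.81 for Cish, -0.72 for Socs2, -0.55 for Stat5b and -0.26 for Ghr, values described with all arrays below, and 11 of 14 endothelial markers fell. In whole heart RNA, fewer cells of a type and less RNA per cell cannot be told apart, and the part of the endothelial shift in the results below was not tested.

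Of the feedback inhibitors, Cish was lower in every double null heart than in any other heart. Its log2 ratio was 0.93, 0.68, 0.34 and 0.46 in the double null hearts. It was 1.37, 1.72, 1.99 and 1.22 in MuRF1 null MuRF2 het hearts, and 1.91, 2.07, 2.14 and 1.46 in MuRF1 het MuRF2 null hearts. The wild type hearts had 2.56, 2.56, 2.05 and 2.40. The 4 double null values did not overlap with any other group, those of MuRF1 null MuRF2 het lay below all wild type values, and those of MuRF1 het MuRF2 null overlapped with both neighbouring groups.

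Group means of Cish were thus 0.60 ± 0.26 in double null hearts, 1.57 ± 0.35 in MuRF1 null MuRF2 het hearts, 1.90 ± 0.31 in MuRF1 het MuRF2 null and 2.39 ± 0.24 in wild type hearts (SD, n = 4). Against wild type, the difference was -1.79 ± 0.19 in double null hearts (3.45-fold lower), the 8th largest of 1484 falls, next to LOC381508 (-1.85) and Crhr2 (-1.78). It was -0.82 ± 0.19 in MuRF1 null MuRF2 het hearts (1.76-fold lower) and -0.49 ± 0.19 in MuRF1 het MuRF2 null hearts (1.41-fold lower). Double null hearts also differed from MuRF1 null MuRF2 het hearts by -0.97 ± 0.19, and from MuRF1 het MuRF2 null hearts by -1.29 ± 0.19. These 5 differences rest on the double null or wild type arrays that chose the gene and are given without a test. The only comparison on other arrays, MuRF1 null MuRF2 het against MuRF1 het MuRF2 null, gave -0.32 ± 0.19, which did not pass (adjusted p = 0.269; 95% interval -0.72 to 0.08).

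The difference in Cish was close in size on both slides. Within slide 1 the difference between double null and wild type was -1.75, and within slide 3 it was -1.82. Over the 16 arrays its ratio correlated with the mean log2 Cy5 signal of the array at r = 0.55, but at r = -0.03 once group means were taken off. Fitted with that brightness as a covariate, the difference was -1.80. The mean log2 Cy5 signal was 5.96 to 6.38 on double null arrays and 6.41 to 6.52 on wild type arrays, without overlap, so this fit extends beyond the brightness measured in either group.

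**Figure D1:**
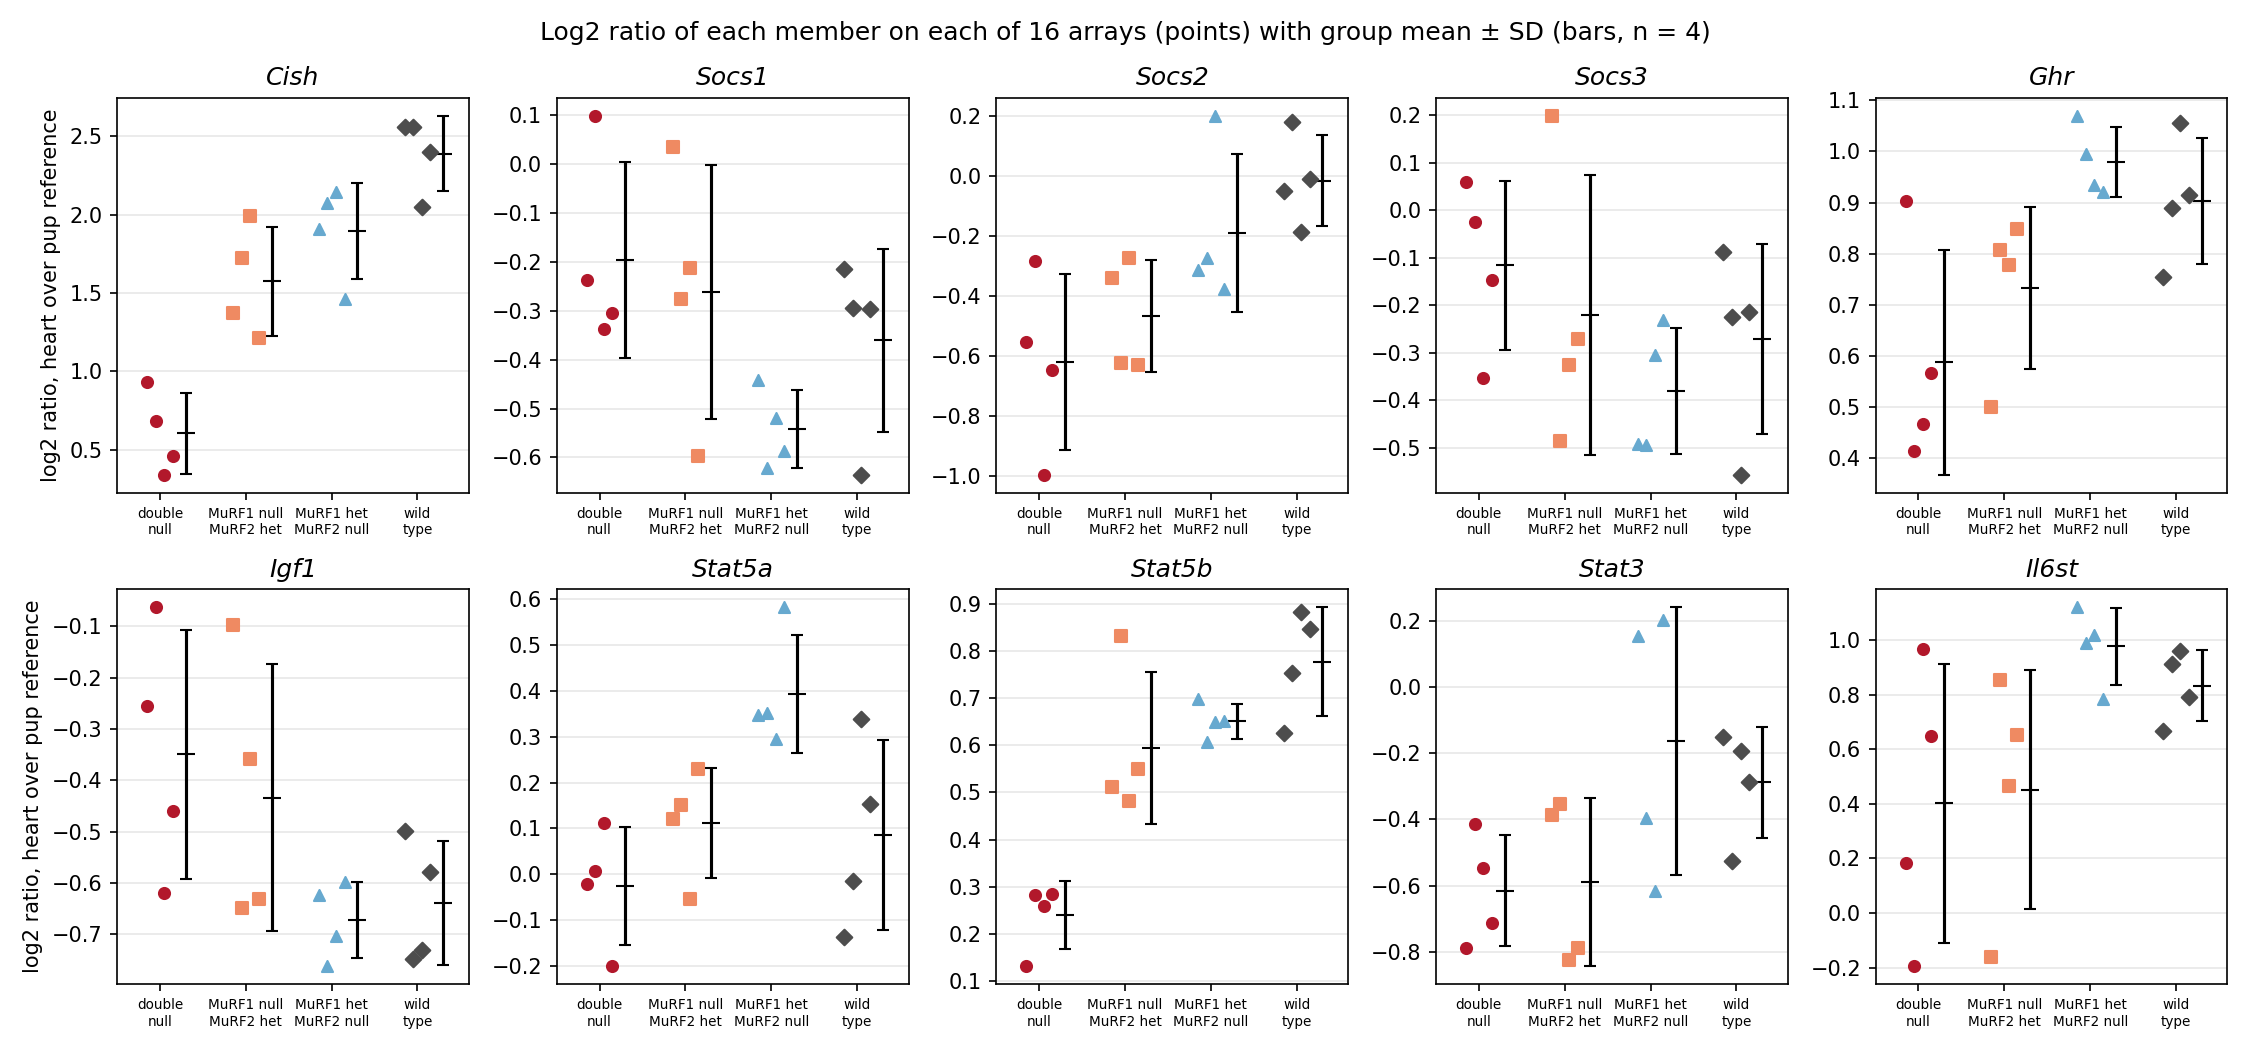
Log2 ratio of heart over pup reference RNA (vertical axes, one scale per gene) for the 10 genes in the 4 genotypes (horizontal axes). Each point is 1 array and the bars show the group mean ± SD (n = 4). The double null values of Cish and Stat5b lie apart from all others, while those of Igf1 and Il6st are widely spread in double null and MuRF1 null MuRF2 het hearts.

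The start of Cish carries a pair of sites of the kind that STAT proteins bind. Windows of 250 bases before to 50 after the start were read from the RefSeq table of build GRCm38.p6 for 9 of the 10 genes (12 windows, since some genes have several starts). Socs2 had no window there and was not searched. The windows were searched for TTCNNNGAA, which reads the same on both strands. The Cish window held 2 matches, which begin at bases 1 and 12 counted from the start and do not overlap, the Socs3 window held 1, and the windows of Ghr, Igf1, Il6st, Socs1, Stat3, Stat5a and Stat5b held none. Of all 32851 windows in the table, 8.30% held a match and 0.457% held 2 or more. A match is only these letters, and binding was not measured. The stretches with matches are shown because only these of the 9 searched members held one, Cish with the widest difference and Socs3 with a small one. Capitals mark the matches. They lie at chr9:107296479-107296678 on the + strand and at chr11:117969367-117969566 on the - strand, and run into the first transcribed bases for Cish and up to the base before the start for Socs3.
Cish: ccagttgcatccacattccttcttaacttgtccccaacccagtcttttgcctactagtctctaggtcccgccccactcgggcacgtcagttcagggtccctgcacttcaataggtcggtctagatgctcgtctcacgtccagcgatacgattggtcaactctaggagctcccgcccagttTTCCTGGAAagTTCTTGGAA
Socs3: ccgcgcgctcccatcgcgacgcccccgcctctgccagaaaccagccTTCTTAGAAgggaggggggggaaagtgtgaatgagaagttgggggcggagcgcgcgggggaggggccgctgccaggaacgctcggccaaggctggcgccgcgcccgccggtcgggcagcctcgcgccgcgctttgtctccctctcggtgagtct

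Socs2, the other inhibitor induced by STAT5, was lower in the same hearts by a smaller amount. The double null hearts had -0.55, -0.28, -0.995 and -0.65, the MuRF1 null MuRF2 het hearts -0.34, -0.62, -0.27 and -0.63, the MuRF1 het MuRF2 null hearts -0.31, -0.27, 0.20 and -0.38, and the wild type hearts -0.05, 0.18, -0.19 and -0.01. All values of both groups without MuRF1 lay below all wild type values. Socs2 correlated with array brightness at r = 0.24 over 16 arrays and at r = -0.62 within groups. Against wild type, the difference was -0.60 ± 0.15 in double null hearts (1.52-fold lower). In MuRF1 null MuRF2 het hearts it was -0.45 ± 0.15 (adjusted p = 0.125) and in MuRF1 het MuRF2 null hearts -0.17 ± 0.15 (adjusted p = 0.646), and neither passed. Socs2 fell in double null against MuRF1 het MuRF2 null hearts by 0.43 ± 0.15 (adjusted p = 0.048), a call that was lost when any of double null 1, 3 or 4 or MuRF1 het MuRF2 null 1, 2 or 3 was left out (differences of -0.47 to -0.30, adjusted p up to 0.152). A second Socs2 probe was well above background on 0 of 4 double null and 4 of 4 wild type arrays, at least 1.14-fold lower in double null hearts; "at least" here sets the dim group at the lowest signal still above background on its arrays.

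Socs1 and Socs3, which restrain interferon and interleukin 6 signals, passed in none of the 5 comparisons other than the one that chose the genes. Socs3 had 0.06, -0.02, -0.35 and -0.15 in double null hearts, against -0.09, -0.22, -0.56 and -0.21 in wild type hearts. It ran from -0.48 to 0.20 in MuRF1 null MuRF2 het hearts and from -0.49 to -0.23 in MuRF1 het MuRF2 null hearts. The difference between double null and wild type was 0.15 ± 0.14, and all groups overlapped. Socs1 ran from -0.34 to 0.10 in double null hearts, from -0.60 to 0.03 in MuRF1 null MuRF2 het hearts, from -0.62 to -0.44 in MuRF1 het MuRF2 null hearts and from -0.64 to -0.22 in wild type hearts. Its difference between double null and wild type was 0.16 ± 0.13, with signal well above background on 1 of 4 double null arrays. Against MuRF1 het MuRF2 null hearts, all of which lay lower, the double null difference of 0.35 ± 0.13 did not pass (adjusted p = 0.0608). With arrays centred on their median instead of normalised by loess, the difference between double null and wild type was -0.27 for Socs1 and -0.70 for Socs3, a setting that moved the median of all genes by -0.49. Both genes followed array brightness, with r = -0.75 for Socs1 and -0.72 for Socs3 over 16 arrays, and the part of brightness in their values was not tested.

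Among the genes of the growth hormone receptor pathway, Stat5b was lowest in double null hearts. It had 0.13, 0.28, 0.26 and 0.28 there, 0.51, 0.83, 0.48 and 0.55 in MuRF1 null MuRF2 het hearts, 0.70, 0.61, 0.65 and 0.65 in MuRF1 het MuRF2 null, and 0.62, 0.75, 0.88 and 0.85 in wild type hearts. No double null value reached the lowest value of another group. The difference was -0.54 ± 0.09 against wild type (1.45-fold lower; -0.48 within slide 1 and -0.59 within slide 3). Stat5b fell in double null against MuRF1 het MuRF2 null hearts by 0.41 ± 0.09 (1.33-fold, adjusted p = 0.00339), and this passed whichever array was left out (adjusted p up to 0.0135), but not with median centring (-0.95, adjusted p = 0.135). Against MuRF1 null MuRF2 het hearts the difference of -0.35 ± 0.09 did not pass (adjusted p = 0.0997), though it did without MuRF1 null MuRF2 het 1 (-0.38, adjusted p = 0.0389). Stat5b differed from wild type, in MuRF1 null MuRF2 het hearts and then in MuRF1 het MuRF2 null hearts, by -0.18 ± 0.09 and -0.13 ± 0.09 (adjusted p = 0.213 and 0.526); the first of these passed without MuRF1 null MuRF2 het 2 (-0.26, adjusted p = 0.0425). A second Stat5b probe, above background on 5 of 16 arrays and on none of the double null ones, differed by -0.05 and gives no bound. Stat5b followed array brightness at r = 0.62 over 16 arrays and at r = 0.39 within groups, and the part of brightness in its values was not tested.

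Stat5a, the close relative of Stat5b beside it on chromosome 11, followed another pattern. Its values were -0.02, 0.01, 0.11 and -0.20 in double null hearts, 0.12, 0.15, -0.05 and 0.23 in MuRF1 null MuRF2 het hearts, 0.35, 0.35, 0.30 and 0.58 in MuRF1 het MuRF2 null and -0.14, -0.01, 0.34 and 0.15 in wild type hearts. Double null hearts overlapped with wild type (-0.11 ± 0.11), but all lay below the MuRF1 het MuRF2 null hearts. There Stat5a fell by 0.42 ± 0.11 (1.34-fold, adjusted p = 0.0107), also whichever array was left out, but not with median centring (-0.49, adjusted p = 0.0817). The MuRF1 het MuRF2 null hearts, on a slide of their own, were above wild type by 0.31 ± 0.11 (adjusted p = 0.153).

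The growth hormone receptor gene Ghr was lower in 3 of 4 double null hearts. It had 0.90, 0.41, 0.47 and 0.57 in double null hearts, 0.50, 0.81, 0.78 and 0.85 in MuRF1 null MuRF2 het hearts, 1.07, 0.99, 0.93 and 0.92 in MuRF1 het MuRF2 null and 0.75, 0.89, 1.06 and 0.91 in wild type hearts. Double null 1 lay among the wild type values and the other double null hearts below them, a difference of -0.32 ± 0.11, which was -0.16 within slide 1, -0.47 within slide 3 and -0.15 with array brightness as a covariate. Ghr fell in double null against MuRF1 het MuRF2 null hearts by 0.39 ± 0.11 (1.31-fold, adjusted p = 0.0162), but not without MuRF1 het MuRF2 null 1 (-0.36, adjusted p = 0.0506). With brightness as a covariate this difference was -0.26 (adjusted p = 0.108) and with median centring -0.82 (adjusted p = 0.123), and neither passed; Ghr followed brightness at r = 0.74 over 16 arrays and 0.56 within groups. A further 2 probes of the same transcript differed from wild type by -0.41 ± 0.15 and -0.33 ± 0.17 in double null hearts. A probe designed on another transcript record went the other way, by 0.31 ± 0.13, and was well above background on 1 of 4 double null arrays. In double null against MuRF1 het MuRF2 null hearts that probe also went up, by 0.40 ± 0.13 (adjusted p = 0.0317 over probes). There the 2 further probes of the same transcript differed by -0.23 ± 0.15 and -0.45 ± 0.17. Neither passed (adjusted p = 0.272 and 0.0589 over probes).

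**Figure D2:**
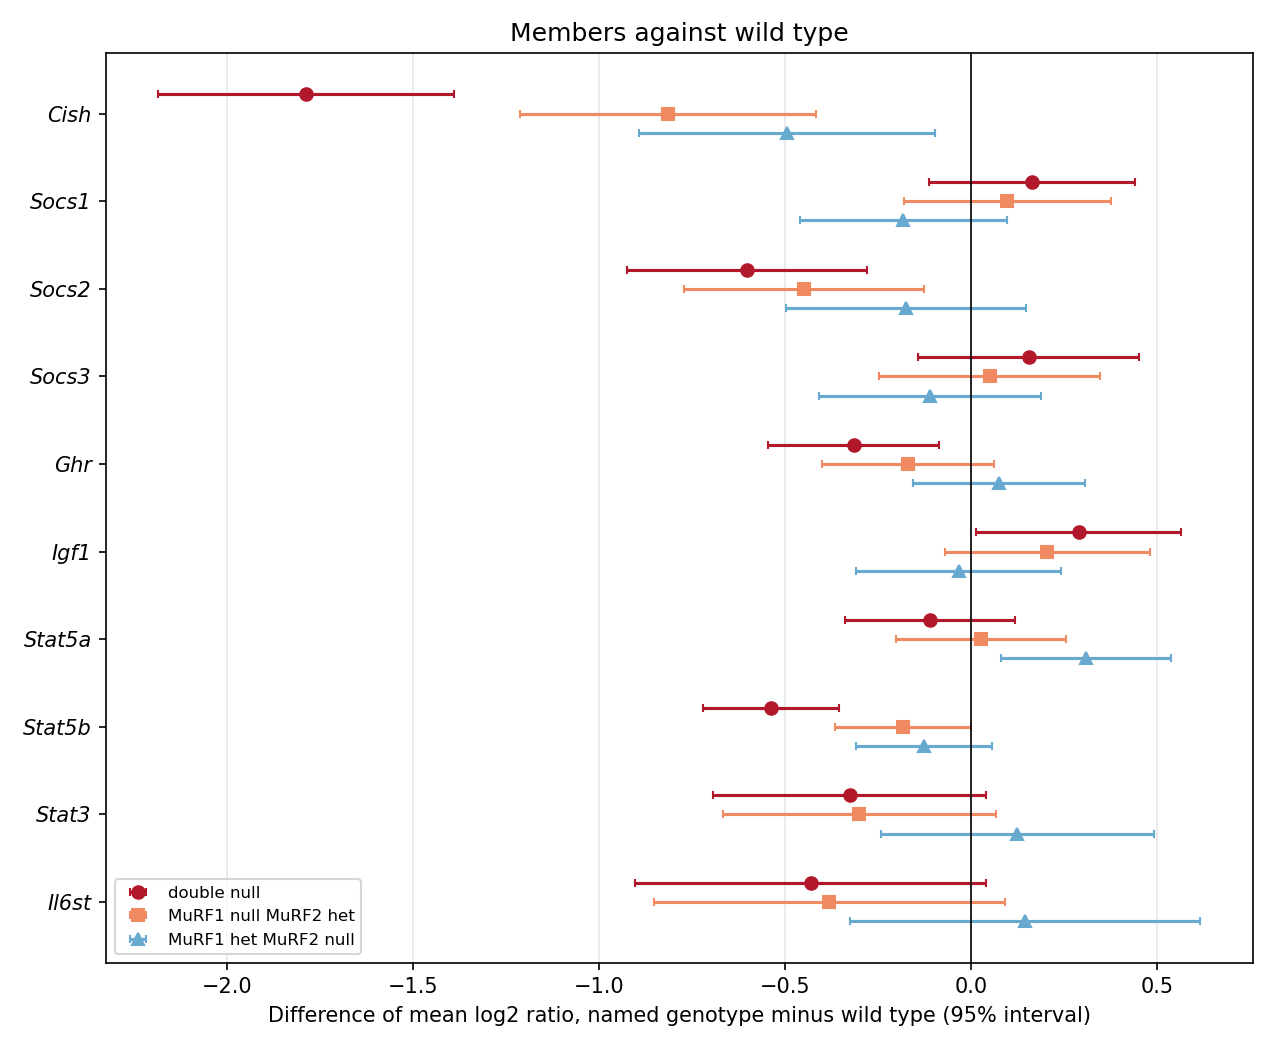
Difference of the mean log2 ratio of each genotype minus wild type (horizontal axis) for the 10 genes, with 95% intervals from limma (n = 4 arrays per group). From top to bottom within a gene are double null, MuRF1 null MuRF2 het and, last, MuRF1 het MuRF2 null; the 3 genotypes share the wild type arrays. Cish lies lowest in each, at -1.79, -0.82 and -0.49.

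**Figure D3:**
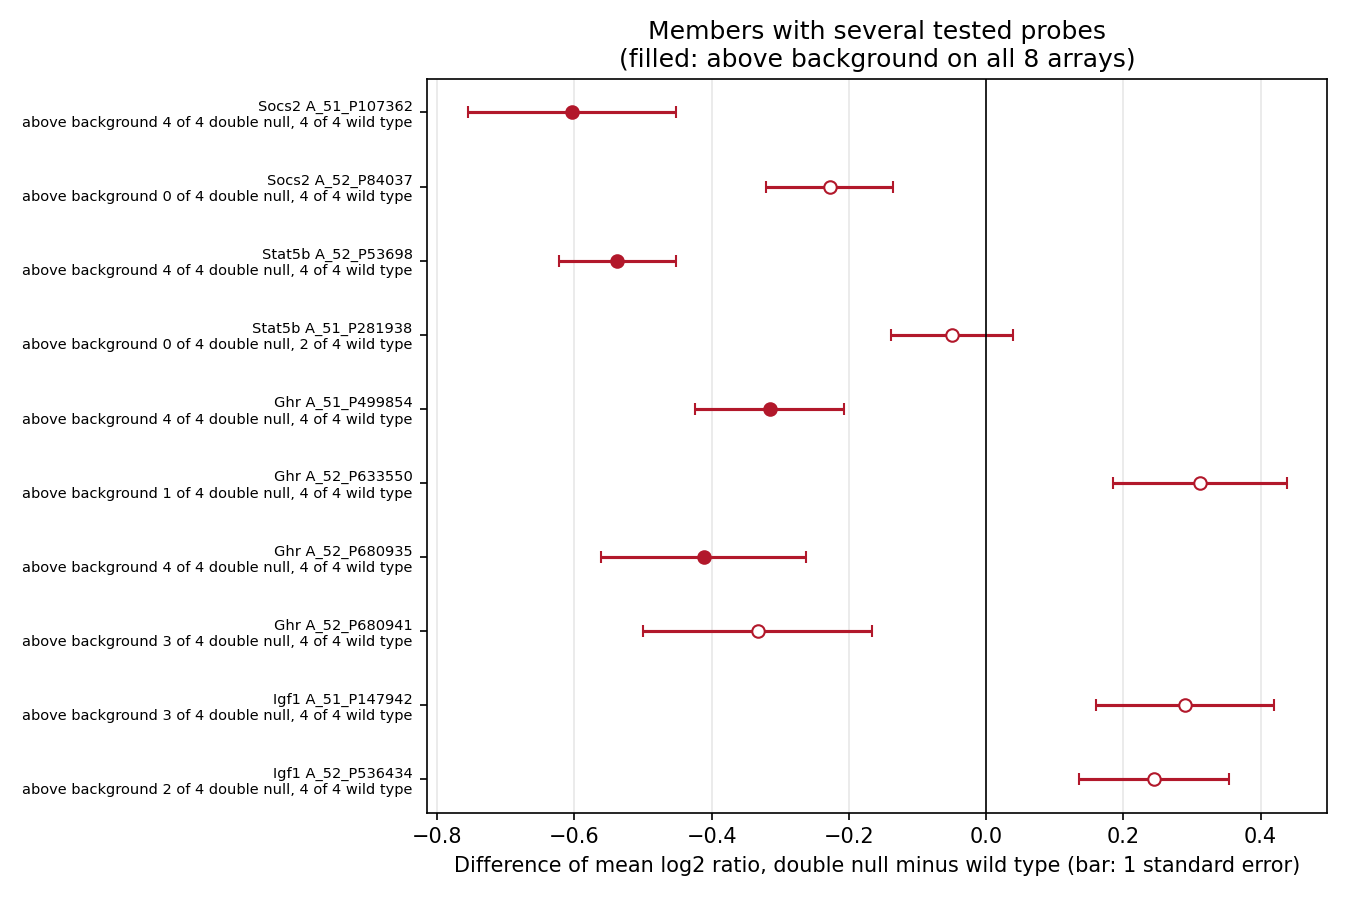
Difference of the mean log2 ratio, double null minus wild type (horizontal axis, bars of 1 standard error), for each tested probe of the 4 members with several. Filled points were well above background on all 8 arrays. The 3 Ghr probes of one transcript lie between -0.41 and -0.32 and the Ghr probe of another record at 0.31.

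Igf1, the growth factor that growth hormone induces, did not pass in any of the 5 comparisons tested. Double null hearts had -0.25, -0.06, -0.62 and -0.46 and MuRF1 null MuRF2 het hearts -0.10, -0.65, -0.36 and -0.63, against -0.62, -0.76, -0.70 and -0.60 in MuRF1 het MuRF2 null and -0.50, -0.75, -0.73 and -0.58 in wild type hearts. The highest values were those of the 2 dimmest arrays, at -0.06 in double null 2 and -0.10 in MuRF1 null MuRF2 het 1. The difference between double null and wild type was 0.29 ± 0.13, or -0.05 with brightness as a covariate and -0.34 with median centring. Igf1 followed array brightness at r = -0.93 over 16 arrays and at r = -0.92 within groups; its second probe gave 0.25 ± 0.11. Igf1 was not well above background on either of these arrays. Only heart RNA was measured, and circulating IGF1 comes mainly from liver.

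On the gp130 side, Il6st and Stat3 did not pass either. Il6st had 0.18, -0.19, 0.97 and 0.65 in double null hearts, against 0.67, 0.91, 0.96 and 0.79 in wild type hearts; it had -0.16, 0.85, 0.46 and 0.65 in MuRF1 null MuRF2 het hearts and 1.12, 0.99, 1.02 and 0.78 in MuRF1 het MuRF2 null hearts. It mirrored Igf1: its lowest values were again on the 2 dimmest arrays, and it followed brightness at r = 0.92 over all arrays and within groups. Its difference of -0.43 ± 0.22 was 0.18 with brightness as a covariate, and -0.07 within slide 3. Stat3 had -0.79, -0.41, -0.55 and -0.71 in double null hearts, against -0.15, -0.52, -0.19 and -0.29 in wild type hearts, and ran from -0.83 to -0.35 in MuRF1 null MuRF2 het hearts and from -0.62 to 0.20 in MuRF1 het MuRF2 null hearts. Double null and wild type hearts overlapped, with a difference of -0.33 ± 0.17 and r = 0.32 with brightness. In double null against MuRF1 het MuRF2 null hearts Stat3 and Il6st differed by -0.45 ± 0.17 (adjusted p = 0.0644) and -0.58 ± 0.22 (adjusted p = 0.0657).

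**Figure D4:**
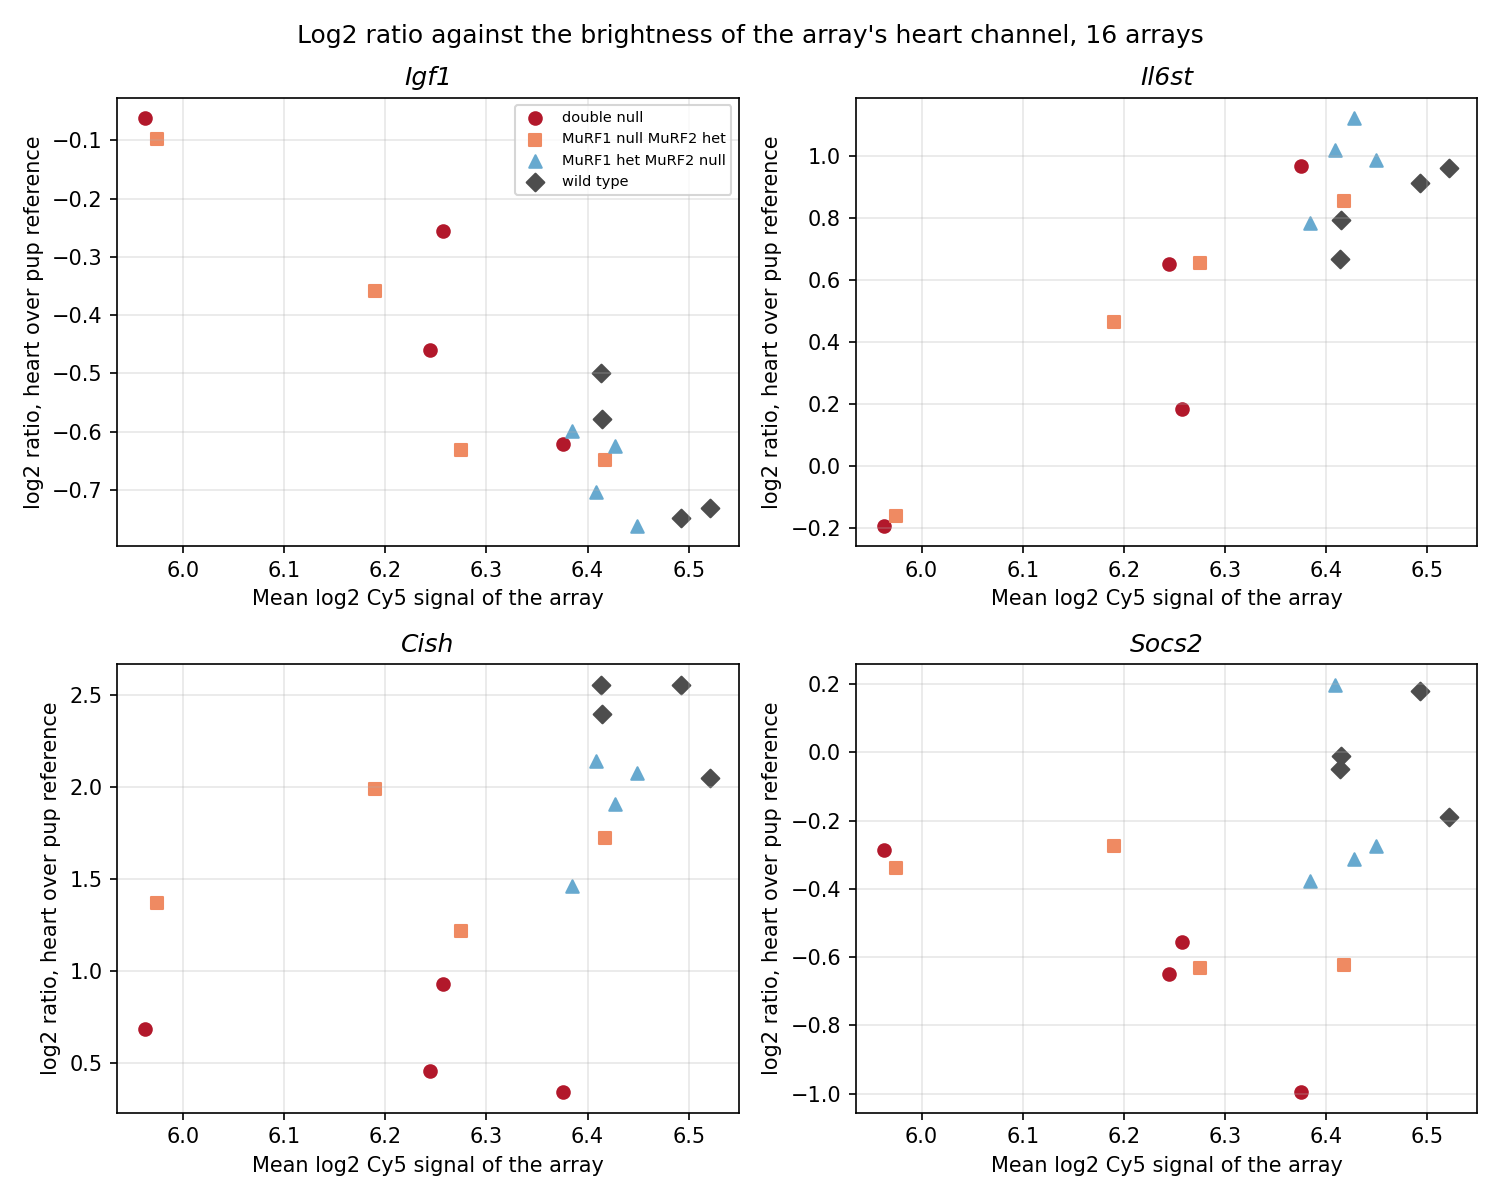
Log2 ratio of heart over pup reference (vertical axes) against the mean log2 Cy5 signal of the array (horizontal axes) for Igf1, Il6st, Cish and Socs2; each point is 1 of 16 arrays. Igf1 falls and Il6st rises with brightness across genotypes (r = -0.93 and 0.92). Double null arrays reach a brightness of 6.38 and wild type arrays begin at 6.41, so these groups share no brightness.

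Counted over the list, 4 of the 10 genes (Cish, Socs2, Stat5b and Ghr, all lower) were under the threshold in double null against wild type, where 22.2% of all genes were; the genes were chosen from that contrast and nothing is read from the count. In MuRF1 null MuRF2 het against wild type, 1 of 10 was (Cish, lower), where 1.03% of all genes passed, and none of the other 9. In MuRF1 het MuRF2 null against wild type, none passed, against 1.98% of all genes, with 2 under an unadjusted p of 0.05 by limma. In double null against MuRF1 null MuRF2 het, 1 of 10 was (Cish, lower), against 0.349% of all genes. Those calls of Cish rest on the arrays that chose it. In double null against MuRF1 het MuRF2 null, 5 of 10 were (Cish, Stat5b, Stat5a, Ghr and Socs2, all lower), against 26.4% of all genes. The count includes Cish, whose difference again rests on double null arrays that chose it and carries no test. In this comparison 10 of 14 endothelial markers fell. In MuRF1 null MuRF2 het against MuRF1 het MuRF2 null, none passed, against 8.52% of all genes, with 5 under an unadjusted p of 0.05. The median difference of the 10 genes was -0.32, -0.18, -0.07, -0.09, -0.42 and -0.26 in the 6 comparisons in this order, against medians of all genes between -0.01 and 0.02.

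Over the 16 arrays, Cish went most closely with Socs2 among the 10 genes (r = 0.81, or 0.60 within groups), and Stat5b was next (r = 0.80, but -0.25 within groups). Among 10782 named genes, the highest correlations with Cish were those of Aldh6a1 (r = 0.92), a mitochondrial enzyme of valine breakdown, Fndc5 (0.91), the precursor of irisin, Crat (0.91), carnitine acetyltransferase, Cited4 (0.90), a transcriptional co-regulator, and Synrg (0.90). The lowest were those of Rnf115 (-0.95), a ubiquitin ligase, Maoa (-0.91), monoamine oxidase A, and Hspb11 (-0.88). Genes most like Socs2 were Isoc1 (0.84), Cish itself (0.81), Fdx1 (0.81), Akt1 (0.81) and Azin1 (0.79), and least like it Ap1s2 (-0.87), Snx10 (-0.82) and Dipk1a (-0.81). Within groups the correlation with Cish was 0.73 for Aldh6a1, 0.25 for Fndc5, 0.16 for Crat, 0.43 for Cited4, 0.61 for Synrg, -0.74 for Rnf115, -0.58 for Maoa and 0.09 for Hspb11, where the sign turned. The correlations of the genes named for Socs2 kept their sign within groups. All describe arrays that share genotype, slide and brightness.

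Around the STATs, some genes of each list of the wider pathway passed in double null against wild type hearts, where 22.2% of all genes did. Of 6 measured JAK kinases and other STATs, 2 fell and none rose: Jak1, the kinase of gp130 (-0.37 ± 0.09, adjusted p = 0.0115), and Stat6, the factor of interleukin 4 (-0.45 ± 0.11, adjusted p = 0.013). Jak2, the kinase of the growth hormone receptor, differed by 0.06 ± 0.10. Among 3 other SOCS genes, Socs5 fell by 0.34 ± 0.10 (adjusted p = 0.0304) with signal above background on 1 of 4 double null arrays, while Socs4 and Socs6 differed by -0.04 and 0.18. Of 8 inhibitors outside the SOCS family 1 fell, the adaptor gene Sh2b3 (-0.32 ± 0.11, adjusted p = 0.0454). Of 12 cytokine receptor chains 3 rose and 1 fell: the interleukin 11 receptor Il11ra1 rose by 0.58 ± 0.10 (adjusted p = 0.00126), Csf2rb by 0.44 ± 0.12 (adjusted p = 0.0201) and Epor by 0.33 ± 0.11 (adjusted p = 0.035), and Il10rb fell by 0.79 ± 0.16 (adjusted p = 0.00308). The gp130 partners Lifr and Osmr differed by 0.12 and -0.14. Of 4 measured cytokines of the list 1 rose and 1 fell; the fall was that of Il15, a cytokine abundant in muscle, by 1.11 ± 0.26 (adjusted p = 0.00796).

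Downstream, part of the genes that carry insulin and IGF1 signals fell in double null against wild type hearts. Of 22 measured transducers, 9 fell and none rose, with a median of -0.25 against 0.01 for all genes. Without double null 1 the median was -0.13 and 6 fell, and over all fits that left out 1 array 6 to 10 fell. The 4 with the smallest p were Pik3r1 (-0.63 ± 0.12, adjusted p = 0.0026, above background on 1 of 4 double null arrays) and Pik3r2 (-0.39 ± 0.09, adjusted p = 0.00627), which encode regulatory subunits of PI3 kinase, Grb14, an adaptor that inhibits the insulin receptor (-0.79 ± 0.18, adjusted p = 0.0065), and the kinase gene Akt1 (-0.44 ± 0.10, adjusted p = 0.00723). Irs1 differed by -0.25 ± 0.24. The count was 10 without the 2 dimmest arrays, an alternative chosen after the data were seen, and 4 with array brightness as a covariate. Of 13 IGF ligands, receptors and binding proteins, Igfbp6 rose by 0.44 ± 0.14 (adjusted p = 0.0294) and Igfals, the acid labile subunit that carries IGF1 in blood, fell at least 1.16-fold (adjusted p = 0.005). Igf1r, Insr and Igfbp3 differed by 0.34, -0.16 and 0.48 and did not pass.

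Of the known STAT targets, shares near the 22.2% of all genes passed in double null against wild type hearts, and the STAT5 and STAT3 lists were not tested against each other. Of 13 measured STAT5 targets outside the 10 genes, 2 fell and 2 rose: Pim3, a survival kinase (-0.85 ± 0.14, adjusted p = 0.000884), and Igfals fell, and Bcl2, an inhibitor of cell death (0.68 ± 0.15, adjusted p = 0.0066), rose. Myc was under the threshold with a higher ratio, but was above background on no double null array and 1 wild type array, and no fold is given. Bcl6, which STAT5 represses, differed by 0.29 ± 0.16. Of 21 STAT3 targets 5 rose and none fell, among them Hspb1, a small heat shock protein (0.90 ± 0.13, adjusted p = 0.000441), Sphk1, sphingosine kinase 1 (0.65 ± 0.17, adjusted p = 0.0163), and Timp1, a metalloproteinase inhibitor (0.50 ± 0.14, adjusted p = 0.0238). The 5 include Serpina3n (0.37 ± 0.12, adjusted p = 0.0346), which was above background on 1 of 4 double null but 4 of 4 wild type arrays. This count turned with the scaling: with median centring none of the 21 rose and 10 fell. In that setting 55.8% of all genes passed, and the median was -0.40 for the 21 genes and -0.49 for all genes. The count of rises was 7 without the 2 dimmest arrays, and 2 without wild type 2 or wild type 4, 3 without wild type 3 or double null 4.

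In the hearts that kept 1 MuRF allele few genes of these lists passed against wild type, as did few of all genes (1.03% in MuRF1 null MuRF2 het hearts and 1.98% in MuRF1 het MuRF2 null hearts). In MuRF1 null MuRF2 het hearts Igfals fell at least 1.18-fold (adjusted p = 0.0283), and no other gene of the pathway lists passed. In MuRF1 het MuRF2 null hearts Socs5 rose by 0.43 ± 0.10 (adjusted p = 0.0416), Il11ra1 rose by 0.47 ± 0.10 (adjusted p = 0.0239), and the cell cycle inhibitor gene Cdkn1a fell by 0.82 ± 0.15 (adjusted p = 0.00952).

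Against MuRF1 het MuRF2 null hearts the double null hearts differed in genes of these lists and in 26.4% of all genes; these groups lay on different slides. Of the lists, 1 of 3 other SOCS genes, 2 of 6 JAK kinases and other STATs and 3 of 22 insulin and IGF1 transducers fell and none rose. Of 13 STAT5 targets 4 rose and 2 fell. In each of 3 lists 1 gene rose and 1 fell, of 8 inhibitors outside the SOCS family, 12 receptor chains and 13 IGF genes, and of 4 cytokines 1 rose and 2 fell. Socs5 fell by 0.77 ± 0.10 (adjusted p = 0.000214), Jak1 by 0.44 ± 0.09 (adjusted p = 0.00374), Grb14 by 1.30 ± 0.18 (adjusted p = 0.000215), Il15 by 1.22 ± 0.26 (adjusted p = 0.00354), Pim3 by 0.71 ± 0.14 (adjusted p = 0.00229) and Insr by 0.34 ± 0.10 (adjusted p = 0.0247). Cdkn1a rose by 0.91 ± 0.15 (adjusted p = 0.000758) and Bcl6 by 0.82 ± 0.16 (adjusted p = 0.00256). Of the STAT3 targets 9 of 21 rose, led by Hspb1 (1.38 ± 0.13, adjusted p = 3.61e-05), and 1 fell, the survival gene Mcl1 (-0.57 ± 0.12, adjusted p = 0.00395). With median centring 1 rose and none fell, with a list median of 0.09 against -0.15 for all genes, of which 7.06% passed. The number that rose was 5 without double null 2 and 4 without MuRF1 het MuRF2 null 2. Against MuRF1 null MuRF2 het hearts, Hspb1 alone of the pathway lists passed in double null hearts (0.66 ± 0.13, adjusted p = 0.0381).

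Between the 2 groups with 1 allele left, Socs5 fell in MuRF1 null MuRF2 het against MuRF1 het MuRF2 null hearts by 0.57 ± 0.10 (adjusted p = 0.007), and Grb14 by 0.74 ± 0.18 (adjusted p = 0.0231). Stc2, whose product restrains the release of IGFs in mouse models, fell by 0.52 ± 0.14 (adjusted p = 0.0311). Hspb1 rose by 0.72 ± 0.13 (adjusted p = 0.00659), Cdkn1a by 0.69 ± 0.15 (adjusted p = 0.0139) and Junb, an AP-1 subunit, by 0.71 ± 0.19 (adjusted p = 0.0313), and Mcl1 fell by 0.52 ± 0.12 (adjusted p = 0.0217). Endothelial markers moved with this comparison too: 7 of 14 fell in MuRF1 null MuRF2 het hearts and none rose, where 8.52% of all genes passed. Irs2 and Lif had no probe under these names, and Il6ra, Pim1, Prlr, Socs7, Il6, Osm and Gh were not well above background on enough arrays to be tested.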

How the data were processed

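Expression was measured on 16 two-colour Agilent arrays, 4 per genotype. Per the file headers, Agilent Feature Extraction read the arrays (9.5.3.1 on the slide of MuRF1 het MuRF2 null hearts, 9.1.3.1 on the other slides); the deposited files give mean spot intensity and median local background intensity in both colours, and the program's own log10 ratio (Cy5 over Cy3). The deposited series matrix holds log2 ratios, which correlated at r = 0.982 or more per array with that ratio less each probe's median over the arrays, in the same direction and on the log2 scale; column medians lay between -0.0279 and 0.0238, and any further step stays unknown. Per the labels' channel entries hearts were in Cy5; the labelling protocol names only Cy3-CTP, and the channel entries were followed.

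The intensities were processed in R 4.3.3 with limma 3.58.1: normexp background correction with an offset of 50, loess within arrays with control and irregular spots at weight 0, irregular spots left out and spots of a probe averaged. Of 41174 probes, 16810 had Cy5 well above background on at least 4 of 16 arrays, and each gene was represented by its brightest probe, giving 12331 genes. Symbols came from RefSeq (GRCm38.p6), for 22951 probes by accession, 6659 by symbol and 3109 by synonym, while 8455 kept the file's name. One model with a mean per group gave 6 comparisons, with two-sided tests and Benjamini-Hochberg adjustment at 0.05. The step was tested on simulated data. There a log2 shift of 0.5 was recovered for 49% to 59% of changed genes, and a shift of 1 for 88% to 95%. Figures were drawn with matplotlib. With 4 arrays a group, their number sets how precise a mean can be.

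The members and gene lists were chosen with earlier results of these data known. Named genes were all members, fixed pathway genes (Jak1, Jak2, Igf1r, Insr, Irs1, Igfbp3, Lifr, Osmr, Socs4 to Socs6 and Bcl6), up to 4 passing genes of smallest p per list and comparison, up to 2 per marker list, and the genes most like Cish and Socs2; some that meet this rule are given as counts or not reported here. Alternatives covered normalisation, background, source of the ratio, scaling, brightness, array weights, filter, probe, slide, samples, replicate number and leaving out arrays.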

Additional observations from a re-analysis of the deposited data

Results flagged for a closer look

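One member probe had an array far from the rest of its group. The Ghr probe A_52_P633550, designed on another transcript record than the other 3 tested Ghr probes, was at -0.61 in double null 3, while the other double null arrays lay between -0.32 and -0.30. The gap to the nearest array was 0.94 of the group's whole range, and double null 3 was the only double null array on which this probe was well above background. In all, 64 groups (16 probes in 4 genotypes) were examined and 1 stood out, where chance alone picks about 1 in 20.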

How the results depend on the processing

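Of 1358 values of the 10 genes recomputed under other settings, 1148 kept their direction and their side of the threshold, 76 lost and 49 gained the call, and 85 changed sign, 9 of them with a call on either side. Cish kept its sign in every setting and comparison. Its call in MuRF1 null MuRF2 het against wild type was kept in 1 of 8 fits that left out an array and in double null against MuRF1 null MuRF2 het in 3 of 8. Both comparisons include arrays that chose Cish, so these calls are a description and carry no test. The setting without the 2 dimmest arrays was chosen after seeing the data. Fewer arrays or genes were fitted for slide 1 alone, only the 2 groups, above background on all arrays, and without the 2 dimmest arrays. The cause of each change below was not tested.

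Percentages in this paragraph are shares of all genes that passed. With median centring, which moved the median of all genes, the number of members under the threshold was 10 in double null against wild type (55.8%). It was 10 in MuRF1 null MuRF2 het against wild type (59.8%) and 2 in MuRF1 het MuRF2 null against wild type (20.7%). It was 0 in double null against MuRF1 null MuRF2 het (0%) and 2 in double null against MuRF1 het MuRF2 null (7.06%). With array weights it was 3 in MuRF1 null MuRF2 het against wild type (17.4%) and 2 in MuRF1 het MuRF2 null against wild type (24.2%). It was 2 in double null against MuRF1 null MuRF2 het (11.7%), 10 in double null against MuRF1 het MuRF2 null (54%) and 2 between the groups with 1 allele (25.4%). With the mean of probes it was 3 in double null against MuRF1 het MuRF2 null (25.8%). On slide 1 alone it was 0 in double null against wild type, where no gene of the whole array passed. The number was 0 in MuRF1 null MuRF2 het against wild type with no background correction, the Feature Extraction log ratio, the series matrix, scaling between arrays, Cy5 alone, genes above background on all arrays, no filter, only the 2 groups, and without the 2 dimmest arrays. In double null against MuRF1 null MuRF2 het the number was 0 with the Feature Extraction log ratio, the series matrix, no filter and only the 2 groups. There it was 2 with brightness as a covariate (2.54%) and 2 without the 2 dimmest arrays (3.91%). Cy5 alone gave 2 (6.16%) and only the 2 groups 1 (16.9%) in MuRF1 het MuRF2 null against wild type. Between the groups with 1 allele, Cy5 alone gave 2 (13.1%) and brightness 1 (7.25%). Leaving out 1 array gave 0 to 2 members in MuRF1 null MuRF2 het against wild type, 0 to 2 in double null against MuRF1 null MuRF2 het and 3 to 7 in double null against MuRF1 het MuRF2 null.

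Same-numbered samples of different genotypes correlated at -0.61 to 0.36 in their deviations, so the numbers were not taken as pairs. With the replicate block, 3 members were under the threshold in double null against wild type, 0 in MuRF1 null MuRF2 het against wild type, 0 in double null against MuRF1 null MuRF2 het and 4 in double null against MuRF1 het MuRF2 null; over all genes the calls were 2383, 66, 16 and 2926, and 152 and 795 in the other comparisons.

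Of the lists, the STAT3 targets that rose in double null against MuRF1 het MuRF2 null hearts numbered 1 with median centring, 5 with the Feature Extraction log ratio, 5 with the series matrix, 5 with brightness and 4 to 9 without 1 array. Against wild type they numbered 0 with median centring, 2 with each of these other 3 settings and 9 with array weights. They numbered 2 of 10 measured above background on all arrays, 0 on slide 1 and 2 to 5 without 1 array. Insulin and IGF1 transducers that fell numbered 15 with median centring, 5 with the Feature Extraction log ratio, 4 with the series matrix and 4 with brightness. They numbered 5 of 11 measured above background on all arrays and 0 on slide 1. Endothelial genes that fell numbered 7 with brightness, 5 of 6 measured above background on all arrays and 0 on slide 1. On slide 1 no gene of the whole array passed. The medians there were -0.19 for the transducers, 0.10 for the STAT3 targets and -0.57 for the endothelial genes. In double null against wild type, 55.8% of all genes passed with median centring and 52.2% with array weights.

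Values of single genes that changed sign were as follows. With median centring, the sign changed for Ghr -0.34, Il6st -0.31, Stat3 -0.36 and Stat5a -0.045 in MuRF1 het MuRF2 null against wild type; for Igf1 -0.011 and Socs3 -0.29 in MuRF1 null MuRF2 het against MuRF1 het MuRF2 null; for Igf1 -0.38, Socs1 -0.30, Socs3 -0.82 and Stat5a -0.39 in MuRF1 null MuRF2 het against wild type; for Igf1 -0.34, Socs1 -0.27 and Socs3 -0.70 in double null against wild type; for Socs3 -0.18 in double null against MuRF1 het MuRF2 null. With the mean of probes, the sign changed for Ghr -0.0196 in MuRF1 het MuRF2 null against wild type. By probe A_52_P633550, the sign changed for Ghr -0.085 in MuRF1 het MuRF2 null against wild type; for Ghr 0.23 in MuRF1 null MuRF2 het against MuRF1 het MuRF2 null; for Ghr 0.14 in MuRF1 null MuRF2 het against wild type; for Ghr 0.40 in double null against MuRF1 het MuRF2 null; for Ghr 0.17 in double null against MuRF1 null MuRF2 het; for Ghr 0.31 in double null against wild type. By probe A_52_P680935, the sign changed for Ghr -0.19 in MuRF1 het MuRF2 null against wild type. With Cy5 alone, the sign changed for Ghr 0.00014, Socs1 -0.026 and Stat5a -0.053 in MuRF1 null MuRF2 het against wild type; for Socs2 0.17 and Socs3 -0.032 in MuRF1 null MuRF2 het against MuRF1 het MuRF2 null; for Socs3 0.20 in MuRF1 het MuRF2 null against wild type; for Stat3 0.039 in double null against MuRF1 null MuRF2 het. With the Feature Extraction log ratio, the sign changed for Igf1 0.0031 in MuRF1 het MuRF2 null against wild type; for Igf1 -0.0086, Socs1 -0.39 and Stat5b 0.037 in MuRF1 null MuRF2 het against MuRF1 het MuRF2 null; for Igf1 -0.0055, Socs1 -0.49 and Stat5a -0.13 in MuRF1 null MuRF2 het against wild type; for Socs1 -0.063 in double null against MuRF1 het MuRF2 null; for Socs1 -0.16 in double null against wild type. With brightness as a covariate, the sign changed for Igf1 -0.033, Socs3 -0.083 and Stat5b 0.0071 in MuRF1 null MuRF2 het against MuRF1 het MuRF2 null; for Igf1 -0.12, Il6st 0.23, Socs1 -0.17 and Socs3 -0.24 in MuRF1 null MuRF2 het against wild type; for Igf1 -0.045, Il6st 0.18, Socs1 -0.10 and Socs3 -0.14 in double null against wild type. With array weights, the sign changed for Il6st 0.061 and Stat3 0.018 in double null against MuRF1 null MuRF2 het; for Socs1 -0.051 and Socs3 -0.057 in MuRF1 null MuRF2 het against wild type. Without the 2 dimmest arrays, the sign changed for Socs1 -0.00094 and Socs3 -0.0899 in MuRF1 null MuRF2 het against wild type. By probe A_52_P84037, the sign changed for Socs2 0.047 in MuRF1 null MuRF2 het against MuRF1 het MuRF2 null. With no background correction, the sign changed for Stat5a -0.065 in MuRF1 null MuRF2 het against wild type. On slide 1 alone, the sign changed for Stat5a 0.069 in double null against wild type. The series matrix gave the same changes of sign as the Feature Extraction log ratio, with Socs1 at -0.062 in double null against MuRF1 het MuRF2 null. Leaving out 1 array gave values on both sides of 0 for Igf1 from -0.069 to 0.014 in MuRF1 het MuRF2 null against wild type; for Igf1 from -0.011 to 0.20, Il6st from -0.26 to 0.15, Socs1 from -0.045 to 0.17 and Stat3 from -0.11 to 0.052 in double null against MuRF1 null MuRF2 het; for Socs1 from -0.00094 to 0.21, Socs3 from -0.0899 to 0.14 and Stat5a from -0.047 to 0.11 in MuRF1 null MuRF2 het against wild type.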
